A study of Drosophila melanogaster with 3 samples.

Results

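Binding of CG10209, tagged with green fluorescent protein (GFP), was examined at 9 genes of the ecdysone response: EcR, usp, Eip74EF, Eip75B, br, E23, Eip78C, Hr78 and ftz-f1. The genes were chosen by name as the ecdysone receptor, its early response genes and related nuclear receptors, and they are 9 of the 13968 protein-coding genes annotated in Drosophila melanogaster. A bound region was assigned to a gene when its summit, the position of highest enrichment, lay in the gene or within 5 kb of it. By this rule 39 of the 6307 peaks retained after filtering by IDR (irreproducible discovery rate, a comparison of region ranks between replicates) belonged to the 9 genes. The pooled list gave 228 of its 30000 regions, and the lists of replicates 1, 2 and 3 gave 172, 226 and 248 of 30000 each.

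The material was whole embryos of both sexes, 0 to 24 h old, from a transgenic line that stably expresses CG10209 with GFP at its C-terminus. Chromatin was sheared by sonication to 200 to 800 bp and precipitated with an antibody against GFP. There was 1 group of 3 biological replicates and no second condition, so all values below are descriptions without a test. Tissues and hours of development are mixed in these embryos, and neither an untagged line nor expression data were used here.

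Ecdysone is the steroid hormone that times moulting and metamorphosis in insects. Its receptor is a pair of nuclear receptors, EcR, which binds the hormone, and Usp, the fly counterpart of the vertebrate retinoid X receptor. The hormone-bound pair switches on a small set of early genes, among them br, Eip74EF and Eip75B, whose protein products are transcription factors that act on larger sets of late genes. A pulse of ecdysone also occurs in the middle of embryogenesis, where the receptor is needed for germ band retraction and head involution. Several of the 9 genes are long and use alternative starts that yield different protein isoforms.

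The sequence at the highest peak of each gene outside EcR is shown first, because these are the places where the tagged protein was most enriched at each locus. Each is read 5′ to 3′ on the strand of the gene from Release 6 (dm6) of the genome (RefSeq), at most 121 bases long and free of untranslated regions. Capitals mark exact matches to 2 of the motifs counted further on: AGGTCA, the core of many nuclear receptor sites, at Eip74EF, and CTCTC, which is GAGAG on the other strand, at Eip75B.
E23, chr2L:3354990-3355110, minus strand, upstream of the start: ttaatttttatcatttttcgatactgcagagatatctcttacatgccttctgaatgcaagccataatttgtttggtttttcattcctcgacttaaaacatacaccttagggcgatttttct
Eip75B, chr3L:17999822-17999939, minus strand, directly upstream of the Eip75B-RC start: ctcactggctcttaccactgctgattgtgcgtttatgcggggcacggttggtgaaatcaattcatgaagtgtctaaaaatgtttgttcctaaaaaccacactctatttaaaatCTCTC
Hr78, chr3L:21497022-21497142, minus strand, first intron of 5 transcripts: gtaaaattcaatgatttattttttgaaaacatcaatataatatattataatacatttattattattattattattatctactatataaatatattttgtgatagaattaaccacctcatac
br, chrX:1618832-1618952, plus strand, intron: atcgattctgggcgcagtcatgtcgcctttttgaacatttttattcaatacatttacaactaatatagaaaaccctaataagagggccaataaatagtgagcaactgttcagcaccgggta
ftz-f1, chr3L:18769478-18769598, minus strand, second intron of ftz-f1-RB: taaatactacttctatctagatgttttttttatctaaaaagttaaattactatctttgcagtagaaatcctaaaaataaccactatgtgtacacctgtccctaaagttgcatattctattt
Eip74EF, chr3L:17567022-17567142, minus strand, intron: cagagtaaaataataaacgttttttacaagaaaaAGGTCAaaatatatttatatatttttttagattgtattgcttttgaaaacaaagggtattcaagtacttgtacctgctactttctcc
usp, chrX:2041387-2041460, minus strand, the whole second intron of usp-RB: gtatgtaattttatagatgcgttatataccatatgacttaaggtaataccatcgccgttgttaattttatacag
Eip78C, chr3L:21253830-21253950, plus strand, intron: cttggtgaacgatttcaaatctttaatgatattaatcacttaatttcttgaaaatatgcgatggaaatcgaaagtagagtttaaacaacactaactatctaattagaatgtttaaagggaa
In 7 of these the summit lies inside the sequence shown. At Eip75B it lies at 17999789, in the 5′ UTR that follows, so the bases shown are those just before the start. The Hr78 run is 85.1% A and T, the highest of the 8, and the Eip75B run, at 59.3%, is the lowest.

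All 9 genes had at least 1 IDR peak, against 7338 of 13968 protein-coding genes (52.5%). Length searched differs greatly between genes, so the count was also set beside genes of similar length. For 2 of the 9, usp and Hr78, gene and flanks together span under 20 kb, a class in which 49.3% of coding genes had a peak. Another 2, E23 and Eip78C, fall in the class of 20 to 50 kb, where 71.3% had one. The other 5 span 50 kb or more, where 75.0% had one. Having a peak therefore does not set the long genes apart from most genes of their length.

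The number of peaks varied more between the genes. Eip75B had 9 peaks, ftz-f1 8, EcR 6, Eip74EF and E23 5 each, usp and br 2 each, and Eip78C and Hr78 1 each. At the mean density of IDR peaks over the 6 arms that hold regions, length alone gives 5.84 peaks for Eip75B, 2.86 for ftz-f1, 4.30 for EcR, 3.33 for Eip74EF and 1.41 for E23. Of these 5 genes, E23 and ftz-f1 lay farthest above it, with 1.67 and 1.32 peaks per 10 kb against 0.472 per 10 kb overall. As many peaks or more were found at 10.9% of coding genes in the length class of E23 and at 13.0% in that of ftz-f1, so such counts are not rare. As many peaks as at Eip75B, or more, were found at 9.19% of its class. The genes br and Eip78C lay below the mean density, with 2 peaks against 4.71 and 1 against 2.35. When 1 replicate was left out and a peak had to overlap a top-ranked region in both others, counts moved by over 1.5 times at 3 genes: E23 kept 3 and ftz-f1 kept 5 without replicate 2, and Eip74EF kept 3 without replicate 3. EcR kept 4 without replicate 2.

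**Figure D1:**
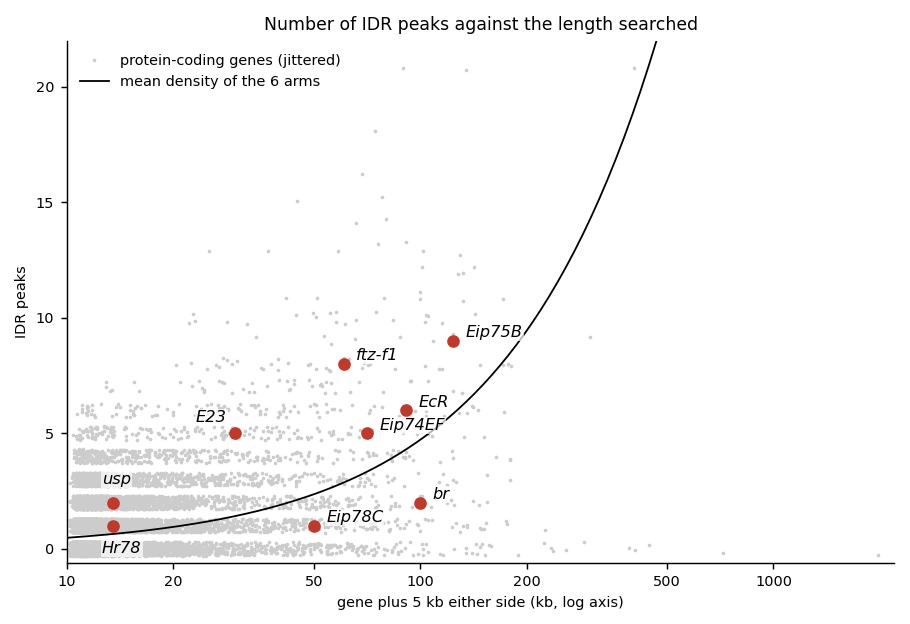
Number of IDR peaks (vertical axis) against the length of gene plus 5 kb either side in kb (horizontal log axis) for all protein-coding genes (grey, jittered vertically) and the 9 ecdysone genes (red); the line is the mean peak density of the 6 arms times the length. Eip75B, with 9 peaks, and ftz-f1, with 8, lie above the line, and br, with 2, lies below it.

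Few of the 39 peaks lay at promoters. A promoter peak, with its summit within 500 bp of an annotated start of the gene, was present at 4 of the 9 genes (usp, Eip75B, Hr78 and E23), against 21.5% of protein-coding genes. The same 4 genes had one when each peak counted for its nearest start alone, against 16.2% of protein-coding genes. Several of the 9 genes have many starts. Counted per distinct start, 6 of 35 (17.1%) had an IDR peak within 500 bp, against 19.8% of starts of protein-coding genes. Only 5 of the 39 peaks were near a start of their own gene, usp having 2 that share bases. Another 3 lay near the start of a neighbour and not of the ecdysone gene: CycT, which encodes a cyclin of the elongation factor P-TEFb, Vps60, an endosomal sorting gene, and CG3740. Thus 8 of 39 summits were within 500 bp of any start, against 42.8% of all IDR peaks. The remaining 31 (79.5%) were farther away, and 24 were more than 5 kb from any start of the gene itself. Introns held 32 of the peaks, 5′ UTRs 2, upstream flanks 3 and downstream flanks 2. Shares of all IDR peaks in introns, or over 5 kb from a start of the gene, were not counted. The median length searched was 60.7 kb at the 9 genes, against 12.2 kb for all protein-coding genes. Whether length accounts for the low share near starts was not tested.

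**Figure D2:**
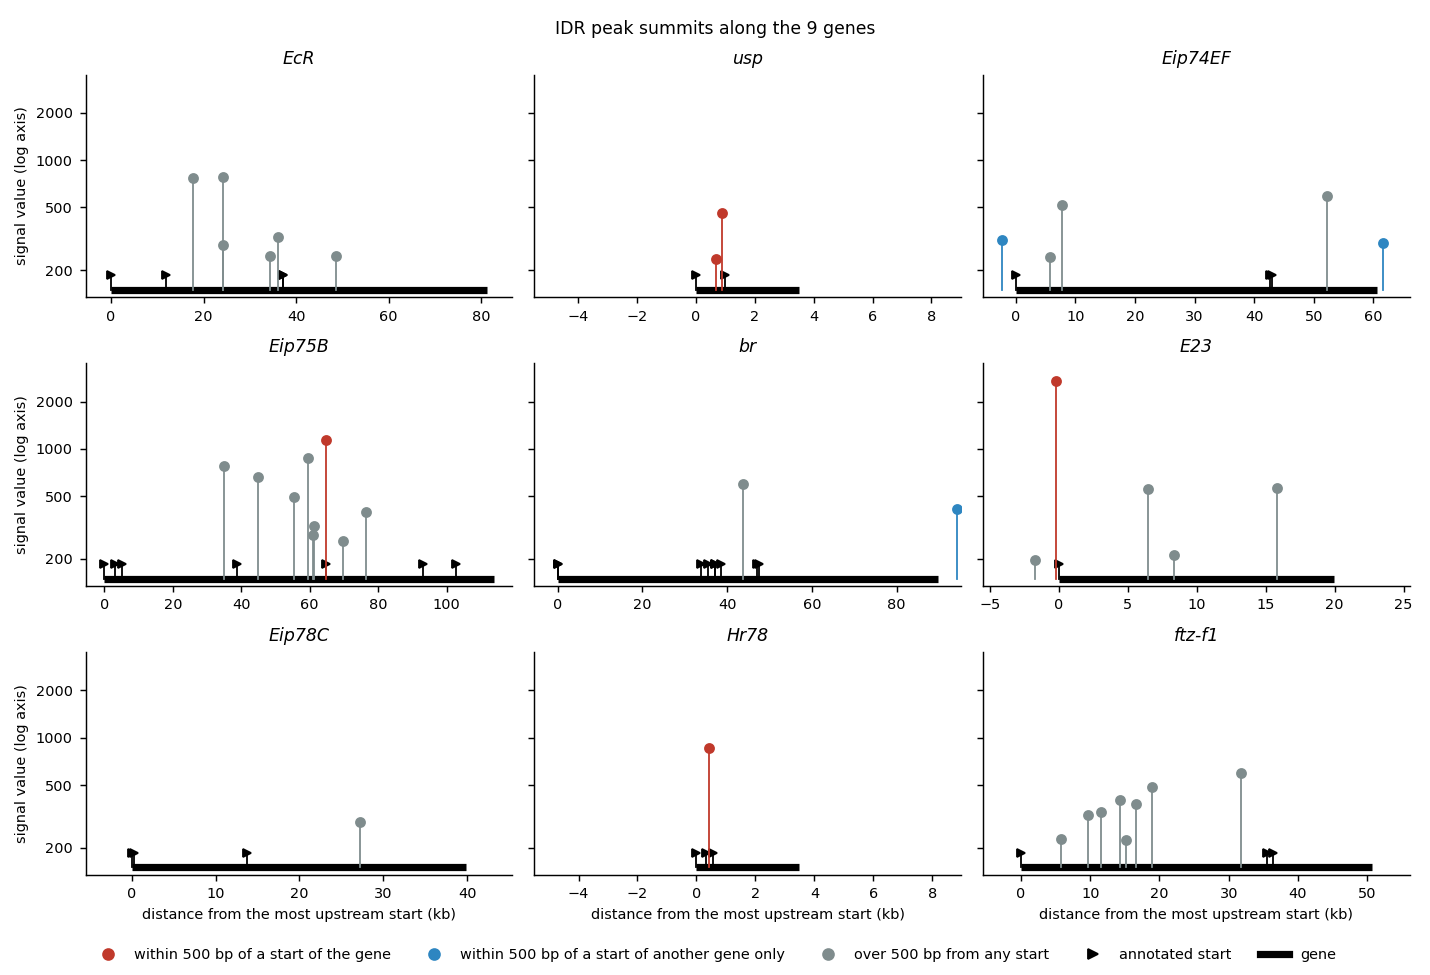
Summits of IDR peaks along each of the 9 genes, as distance from the most upstream start in kb (horizontal axis, in the direction of transcription) and the authors' signal value (vertical log axis), with the gene as a black bar and its annotated starts as flags. Red summits, at usp, Eip75B, Hr78 and E23, lie within 500 bp of a start of the gene, blue ones near a neighbour's start only, and grey ones, the majority, over 500 bp from any start.

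E23 encodes an ABC transporter induced by ecdysone that dampens the ecdysone response (FBgn0020445, 2L, 3334875 to 3354829, minus strand). It had the highest peak of the 9 genes, 221 bp upstream of the only annotated start, shared by E23-RC, E23-RD and E23-RE. The signal value, the authors' enrichment score in column 7, was 2712 in the IDR list, rank 47 of 6307. The overlapping region had a signal of 954 in replicate 1, 701 in replicate 2 and 1056 in replicate 3, and ranked 50, 59 and 47. Signal scales differ between lists, so ranks are what can be compared, and here they were nearly the same in all 3 replicates. In the second intron of E23 lay 3 further peaks, with signals of 556, 211 and 566 at 6495, 8315 and 15844 bp from the start. The peak of signal 211 ranked 3072 and 4460 in replicates 2 and 3 but 9874 in replicate 1, below the 6307 regions of highest signal there. The fifth peak, 1718 bp upstream, was among the weakest of the IDR list, with signal 198 and rank 6199, and its summit was nearer the start of CG8838, at 1099 bp.

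Eip75B encodes a haem-binding nuclear receptor in several isoforms (FBgn0000568, 3L, 17950953 to 18064696, minus strand). Its 7 transcripts have 7 distinct starts, and only that of Eip75B-RC carried an IDR peak. The summit was 32 bp downstream of this start, in the 5′ UTR, with signal 1134 and rank 433. It ranked 421, 402 and 498 in replicates 1, 2 and 3, with signals of 393, 333 and 413. The other 8 peaks were intronic, from one of signal 775 at 3789 bp upstream of the Eip75B-RG start to one of signal 398 at 11522 bp downstream of the Eip75B-RC start. The strongest of them had signal 877 and lay 5405 bp upstream of the Eip75B-RC start, ranking 774, 726 and 680. All 9 peaks overlapped a top-ranked region in every replicate. However, those of signal 324 and 285 share bases and lay under the same region in each replicate, ranked 5454, 1715 and 2859. The replicates do not separate them, and the replicate 1 region had a −log10 q of 1.39. The start of Eip75B-RD had a region just under the IDR list, with signal 194 and pooled rank 6347, with replicate ranks of 15447, 7391 and 6553.

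Hr78 encodes an orphan nuclear receptor needed for ecdysone responses at the onset of metamorphosis (FBgn0015239, 3L, 21494019 to 21497494, minus strand). Its single peak had signal 866 and rank 737. The replicate signals were 224, 300 and 349, and the ranks 1139, 482 and 665, with replicate 1 placing it lowest. The gene is short, and the summit was within 500 bp of all 3 of its starts: 422 bp downstream of that of Hr78-RA to Hr78-RD, 111 bp downstream of that of Hr78-RE and 131 bp upstream of that of Hr78-RF. It also lay in the antisense gene asRNA:CR43933, and which of these starts it belongs to cannot be told from its position.

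The receptor genes usp and EcR differed in where their peaks lay. In usp (FBgn0003964, X, 2038798 to 2042311, minus strand) 2 overlapping peaks were called, 120 and 320 bp upstream of the usp-RA start. Their signals were 458 and 234. Each replicate list had 1 region over both, with signals of 168, 125 and 156 and ranks of 1746, 2411 and 2513, so the replicates do not separate them. The summit of the weaker peak was nearer the start of CG4313, at 236 bp, and both lie within Actn, the alpha-actinin gene. The upstream start, that of usp-RB, had a pooled region of signal 170 at rank 7408, below the IDR peaks.

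EcR (FBgn0000546, 2R, 6087873 to 6169087, minus strand) had 6 peaks and all were intronic, in intron 3 or 4 of the long transcripts EcR-RA, EcR-RD and EcR-RE. A peak of signal 247, 11358 bp downstream of the EcR-RG start, also lay in introns of EcR-RB, EcR-RC and EcR-RG. The nearest to a start of EcR was 1177 bp upstream of that of EcR-RB and EcR-RC, with signal 325. The highest had signal 782 and rank 874 and lay 12347 bp downstream of the EcR-RD and EcR-RE start. Its replicate signals were 156, 364 and 296, with ranks of 1925, 340 and 912, which differ more than those of any other top peak of the 9 genes. A second peak called on the same interval had signal 288. In each replicate the same region was the highest over both, so the replicates do not separate them. The replicate 1 summit lay 89 bp from that of the weaker peak and 116 bp from that of the stronger. A further peak had a signal of 769, almost as high, and ranked 878, 908 and 952, close together in the replicates. The highest peaks of EcR lay nearer to tRNA genes than to a start of EcR: that of signal 782 was 2338 bp from tRNA:Lys-CTT-1-1, and that of signal 769 was 1377 bp from tRNA:Asn-GTT-1-1.

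The early genes Eip74EF and br had no promoter peak. Eip74EF encodes an ETS-domain transcription factor (FBgn0000567, 3L, 17558672 to 17619325, minus strand). Its highest peak had signal 595 and rank 1388 and lay 9238 bp downstream of the Eip74EF-RD start, in the first intron of the short transcripts Eip74EF-RB and Eip74EF-RD and the fifth of the long ones. The replicate signals were 209, 168 and 204 and the ranks 1275, 1450 and 1693, a narrow range. In the first intron of the long transcripts lay 2 peaks, with signals of 515 and 243, the weaker of which ranked 7887 in replicate 2. The remaining 2 of its 5 peaks were outside the gene, 21 bp from the start of Vps60 (signal 310) and 142 bp from that of CycT (signal 299), and the latter had no region in replicate 1.

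The gene br, also called Broad-Complex, encodes BTB zinc-finger transcription factors (FBgn0283451, X, 1575132 to 1664869, plus strand). It has 16 transcripts and 9 distinct starts, the most of the 9 genes, and 0 of these starts had a region of any rank within 500 bp in the pooled list or in a replicate list. The higher of its 2 peaks had signal 598 and rank 1371, with replicate signals of 256, 124 and 220 and ranks of 921, 2420 and 1486. It lay in the first intron of most transcripts, 3416 bp upstream of the br-RS start, inside the mucin-related gene Mur2B and 737 bp from the start of that gene. The other peak (signal 417) was downstream of br, 108 bp from the start of CG3740. Pooled regions as a whole were sparse here, at 0.702 per 10 kb against 2.21 on X, while the other 8 genes had 2.97 to 6.42 per 10 kb. Few regions of any rank, not only few peaks, were thus called across br.

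Among the related receptors, ftz-f1 had all its 8 peaks in 1 intron and Eip78C a single one. ftz-f1 encodes a nuclear receptor that acts as a competence factor for the prepupal ecdysone response and, in its maternal form, as a partner of the pair-rule protein Ftz (FBgn0001078, 3L, 18750607 to 18801309, minus strand). All 8 peaks lay in the second intron of ftz-f1-RB, upstream of the starts of the other 3 transcripts. The highest had signal 595 and rank 1387, 3794 bp upstream of the start of ftz-f1-RC and ftz-f1-RD. Its replicate signals were 247, 151 and 211, with ranks of 984, 1781 and 1599. The other 7 had signals from 224 to 484 and overlapped lncRNA:CR45939, and 5 of the 8 peaks overlapped a top-ranked region in every replicate. Pooled regions were densest at ftz-f1 among the 9 genes, at 6.42 per 10 kb.

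Eip78C encodes a nuclear receptor closely related to that of Eip75B (FBgn0004865, 3L, 21226609 to 21266503, plus strand). Its only peak was intronic, 13543 bp downstream of the Eip78C-RB start, with signal 293 and rank 3877. The replicate signals were 108, 84.8 and 97.5 and the ranks 3045, 4443 and 4741. It was the lowest of the 9 highest peaks in every replicate. The starts of Eip78C-RA, Eip78C-RD and Eip78C-RE had no region in any list.

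Ordered by their highest peak, the genes ran E23, Eip75B, Hr78, EcR, br, ftz-f1, Eip74EF, usp and Eip78C. Ranks come from the same replicate lists, so the genes were compared within each replicate, each by the region over its highest peak in the IDR list. E23 (ranks 47 to 59) was ahead of the other 8 genes in all 3 replicates, and Eip78C (3045 to 4741) was behind them in all 3. Eip75B (402 to 498) was ahead of Hr78, br, ftz-f1, Eip74EF, usp and Eip78C in all 3, while EcR was ahead of it in replicate 2 alone. Hr78 (482 to 1139) was ahead of Eip74EF (1275 to 1693) and usp (1746 to 2513) in all 3, but behind br and ftz-f1 in replicate 1. The order of br, ftz-f1 and Eip74EF was not the same in every replicate. usp was behind ftz-f1 and Eip74EF in all 3, but ahead of br in replicate 2. In replicate 1 it was ahead of the highest EcR peak, though not of the EcR peak of signal 769. The highest EcR peak (340 to 1925) had no fixed place, ahead of the other genes but E23 in replicate 2 and behind all but Eip78C in replicate 1. That low place belongs to the region shared with the EcR peak of signal 288, and not to the gene. The EcR peak of signal 769 ranked 878 in replicate 1, behind E23 and Eip75B alone.

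Of the 39 peaks, 30 (76.9%) overlapped one of the 6307 regions of highest signal in every replicate, against 66.0% of all IDR peaks. The other 9 did so in 2 replicates. Of the 39, 6 share bases with another IDR peak, at usp, EcR and Eip75B. These were counted separately, although each pair lay under the same region in every replicate. Replicate 1 was the least complete, with 34 peaks covered against 38 in replicate 2 and 36 in replicate 3, and it held fewer regions with a −log10 q of 2 or more over the whole genome (4296, against 9183 and 9015). For the 37 peaks with a region in every list, the highest replicate rank was a median of 1.72 times the lowest, with a range from 1.08 to 5.66. At 13 peaks the ratio was above 2.

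**Figure D3:**
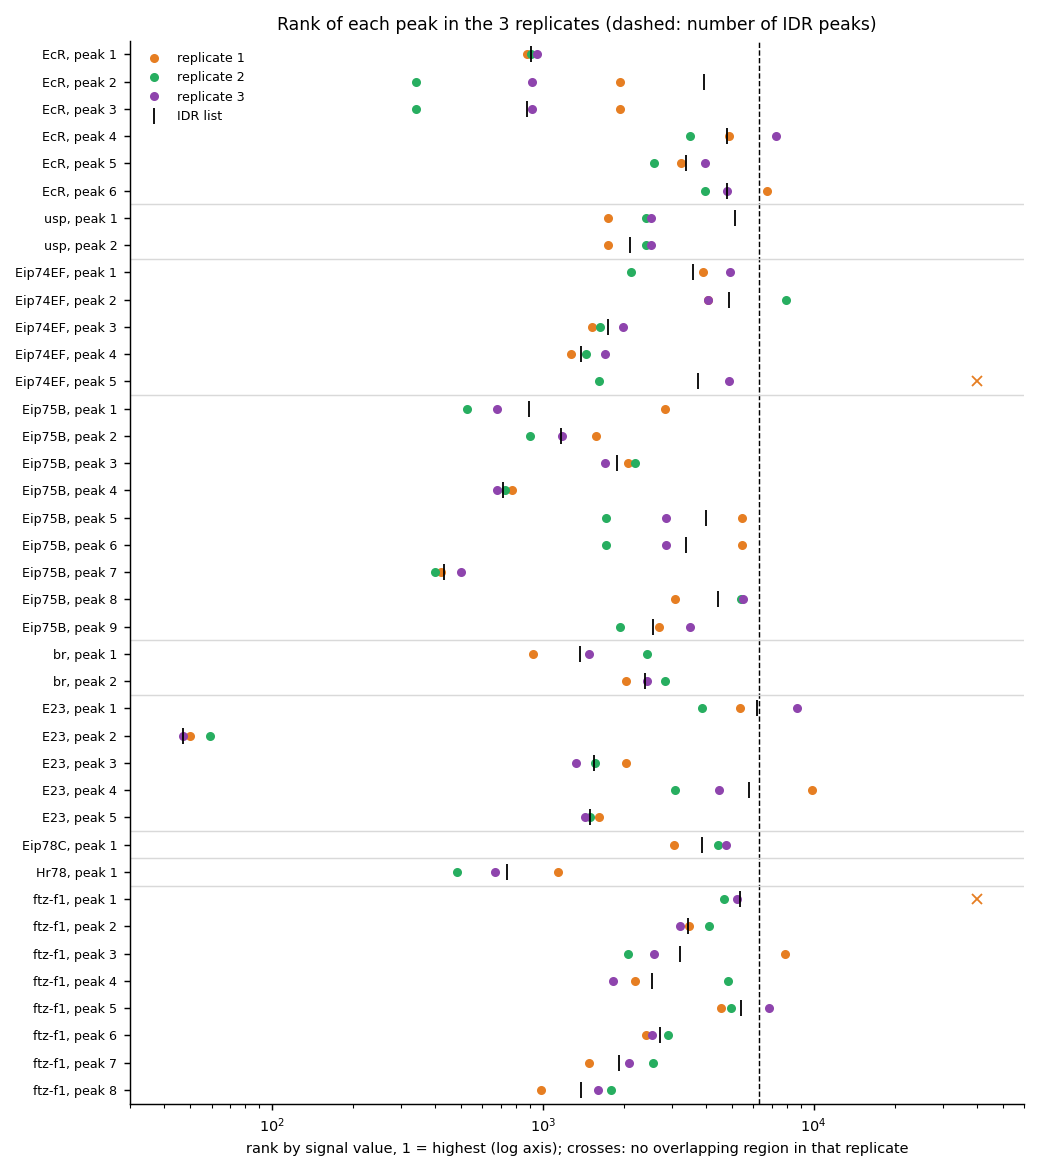
Rank by signal value (horizontal log axis, 1 is the highest) of the region over each of the 39 peaks in replicates 1, 2 and 3 (coloured points) and in the IDR list (black ticks); crosses mark peaks with no region in a replicate and the dashed line stands at rank 6307. The E23 promoter peak stays between ranks 47 and 59, whereas the highest EcR peak spreads from 340 to 1925.

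Signal values of the 39 peaks ran from 198 to 2712 with a median of 398, and those of all IDR peaks had a median of 341. The 5 peaks near a start of their own gene had a median of 866, against 380 for all IDR peaks within 500 bp of a start. The 31 peaks over 500 bp from any start had a median of 380, against 318 for the same class genome-wide, and none exceeded 877. Narrower peaks had the higher median signal. Of the 39 peaks, 13 (33.3%) were narrower than 300 bp, against 25.5% of all. Their median signal was 595, against 551 for all narrow peaks and 291 for all wider ones. The highest of the 39 peaks, at E23, was 454 bp wide. Whether width contributes to the signal values was not tested.

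The 9 genes have 35 distinct annotated starts, of which 6 (17.1%) had an IDR peak within 500 bp, against 3887 of 19630 starts of protein-coding genes (19.8%). Those 6 were the starts of usp-RA, Eip75B-RC and E23 and the 3 starts of Hr78. With regions of any rank, 19 of the 35 had a pooled region, 10 had a region in every replicate, and 12 had none in any list. The same shares of all protein-coding starts were not counted, so these counts have no background. The 12 comprised all 9 starts of br, 2 of Eip78C and that of Eip75B-RG. Below the IDR peaks but at a −log10 q of 2 or more lay 15 further pooled regions at the 9 genes. Of these, 6 were at Eip75B and 4 at ftz-f1, with 124 and 60.7 kb searched. With them the 9 genes had 54 of the 7927 pooled regions at that −log10 q, against 39 of the 6307 IDR peaks.

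**Figure D4:**
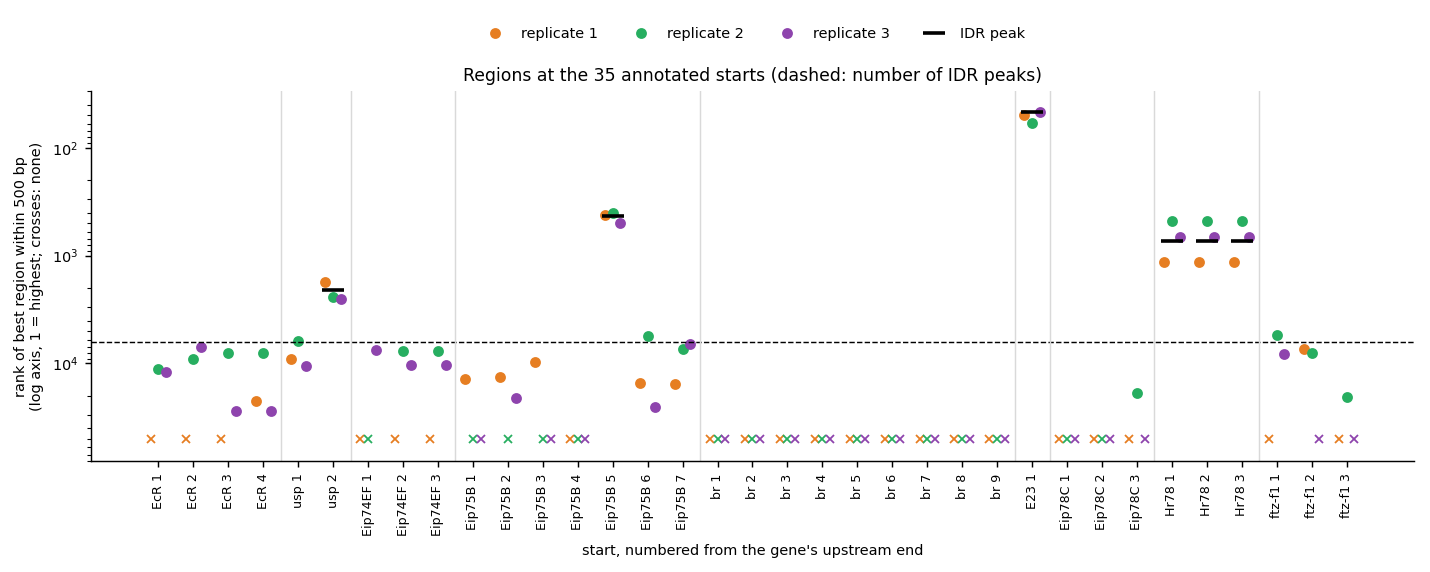
Rank (vertical log axis, 1 at the top) of the best region within 500 bp of each of the 35 annotated starts in replicates 1, 2 and 3 (coloured points) and of the IDR peak where there is one (black bars); crosses mark starts with no region and the dashed line stands at rank 6307. IDR peaks mark 6 starts, and all 9 starts of br are without a region.

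Motifs were counted as exact matches on both strands within 100 bp of each summit. AGGTCA was found at 2 of the 39 peaks (5.13%), the intronic peak of Eip74EF shown above and the EcR peak of signal 288, against 4.09% of all IDR peaks and 4.90% of windows centred 1000 bp to their right. The full ecdysone response element, a palindrome with a 1-base spacer, matched at 0 of the 39 and at 2 of 6307. GAGAG, the site of GAGA factor, was found at 13 (33.3%) of the member peaks and 9 of their flanking windows, against 21.6% of all peaks and 23.3% of all flanks. TATCGATA, the DNA replication-related element, was found at 1, the peak downstream of br, against 2.54% of all. Of 2 words of 8 bases included because earlier work on these data had picked them out, CACTGTGC was found at 3 of the peaks (7.69%), against 3.90% of all and 1.01% of flanks, and CACTGAGA at 0, against 3.69% and 0.555%. Those 3 are intronic, 2 in Eip74EF and 1 in Eip75B. A and T made up a median of 65.2% of bases in the windows of the 39 peaks and also in those of all IDR peaks. The counts are small, and a match is not evidence of binding by the factor named.

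Other genes of the pathway were counted in 6 lists. Of 12 other nuclear receptors and transcription factors of the cascade, 11 (91.7%) had an IDR peak in the gene or within 5 kb and 5 (41.7%) had a promoter peak, with a median length searched of 32.4 kb. The promoter peaks were at Hnf4 (signal 767), vri (701), ERR (545, with its nearest start that of Atg18a), Kr-h1 (275) and crol (197). The Kr-h1 peak overlapped a top-ranked region in 2 replicates, and the crol peak in none. Among 9 genes of receptor cofactors, 8 (88.9%) had a peak and 4 a promoter peak. These were tai, a p160-type coactivator (730, nearer the start of CG9586), and Sin3A, a corepressor (721, with its nearest start that of lncRNA:CR30055). The others were nej, the CBP acetyltransferase (426), and E(bx), a subunit of the remodeller NURF (296). The peaks at Sin3A and E(bx) overlapped a top-ranked region in 2 replicates. In both lists, as in the 9 genes, the median length searched was above the 12.2 kb of all protein-coding genes.

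The other 4 lists hold shorter genes, with median lengths searched of 10.6 to 14.0 kb. Their counts are to be read beside the 52.5% of protein-coding genes with a peak and the 21.5% with a promoter peak, or the 49.3% with a peak among those under 20 kb. Of 14 other ecdysone-inducible genes, 9 (64.3%) had a peak, and promoter peaks were at Ldh, lactate dehydrogenase (signal 1479), Eip63F-1 (832) and Eip63E (469). Of 10 genes of ecdysone synthesis, breakdown and uptake, 4 (40.0%) had a peak, with promoter peaks at Oatp74D, the ecdysone importer (347), and shd, which makes the active hormone (250). Of 7 regulators of synthesis, 3 (42.9%) had a peak, with a promoter peak at woc (280). Of 17 late puff and glue genes, which are larval targets, 2 (11.8%) had a peak and 0 had a promoter peak. The signals were 1641 for Sgs4 and 1385 for Sgs1, and whether these summits lie in the gene or a flank was not examined. In this list Eig71Ea to Eig71Ek are named for the same chromosomal band on 3L. Their windows may overlap, which was not checked, so the 11.8% may not be a share of 17 separate loci.

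**Figure D5:**
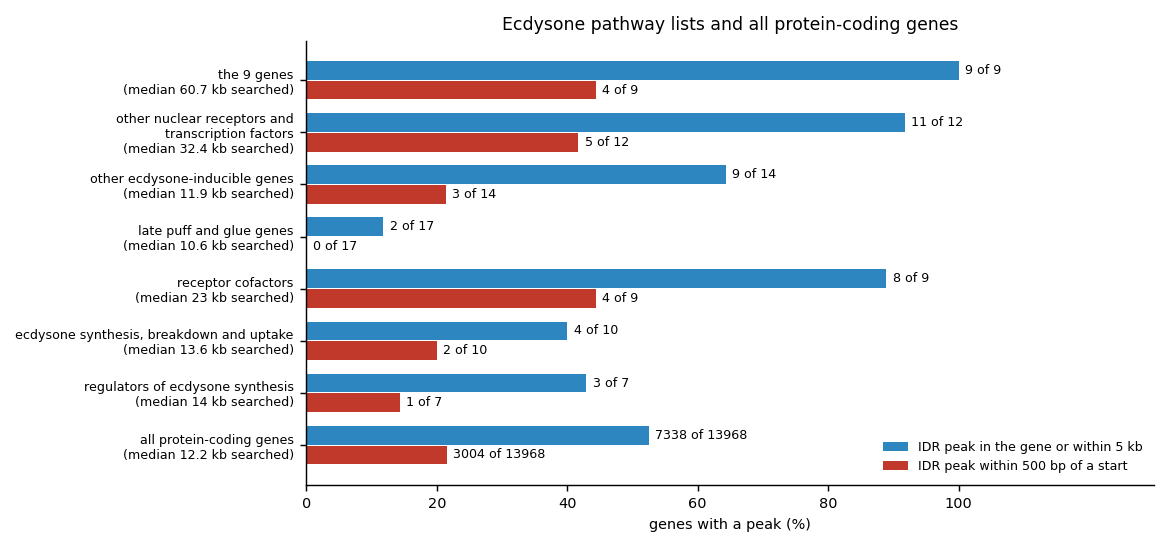
Share of genes (horizontal axis, %) with an IDR peak in the gene or within 5 kb (blue) and within 500 bp of a start (red) for the 9 genes, 6 lists of other pathway genes and all protein-coding genes, with counts beside the bars and the median length searched in the labels. The 9 genes (9 of 9) and the other receptors and factors (11 of 12) stand at the top and also have the longest median lengths. The late puff and glue genes (2 of 17) stand at the bottom, and some of them may have overlapping windows.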

How the data were processed

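Region lists in narrowPeak layout with dm6 coordinates were used; lists with dm3 coordinates were not used here. The deposited text files state that the authors called regions in each replicate and in the pooled replicates, each time with 1 further alignment common to all lists whose role they do not name. The signal values and the −log10 q values are those the authors deposited. Neither the software used for alignment and peak calling nor the cut-off applied for IDR is named in the sources used here. Read depth per sample is unknown because the lists hold no read counts. The −log10 q reached its highest value, 4.06, at 38 of the 39 peaks, so it does not rank them. The IDR peaks are the pooled regions of highest signal: the lowest has 194.682 and the highest other pooled region 194.667.

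Summits were assigned with the Ensembl 115 annotation (18277 genes) in Python 3.11.15 with pandas 2.3.3, and sequences were read from Release 6. Symbols of some listed genes were updated or respelled to match the annotation. Replicate regions overlapped a peak by at least 1 bp, and top-ranked means among the 6307 of highest signal in a replicate. The assignment and overlap steps were tested on simulated data. Genes, lists and motifs were chosen with earlier results of these data known. All 9 genes are described, each with its highest peak and every peak within 500 bp of a start; of the pathway lists, genes with a promoter peak are named, and for late puff and glue genes, which have none, those with a peak. Alternatives were other windows, promoter distances, overlaps and region sets, and omission of each replicate.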

Additional observations from a re-analysis of the deposited data

How the results depend on the processing

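All 9 genes had a peak with a window of 0 kb, so windows of 2 and 10 kb could give no other count. At promoter distances of 250 and 1000 bp, 4 had a promoter peak, and the longer distance could only have added genes. Neither count changed without any single replicate. Shares of all protein-coding genes under these settings were not counted. With the 50% of IDR peaks of highest signal, 8 genes had a peak (Eip78C had 0) and the peaks at the genes fell from 39 to 21. With all pooled regions of −log10 q of 2 or more, peaks near a start of the gene rose from 5 to 8 and genes with one from 4 to 5. The wider set of regions was the only change there. Windows of 0 and 10 kb gave 34 and 41 peaks. Leaving out each replicate in turn gave 31 to 35 peaks, the lowest without replicate 2, with 5 near a start throughout. Peaks covered in every replicate were 30, and 21 to 29 under other overlaps, the top 3000 regions or a −log10 q minimum. Of 143 peak counts and highest signals per gene under the alternatives, 125 were unchanged or within 1.5 times and 18 moved further. Of the 143, 71 were highest signals, and 69 of these were unchanged. Leaving out a replicate or weaker peaks, or adding weaker regions, does not recompute the pooled signals. The highest signals therefore say little about stability, and they raise the unchanged share. The highest signal changed at 2 genes: E23, 566 with a window of 0 kb, and usp, 1595 with one of 10 kb. No paired analysis was possible because there is 1 group and no test. IDR itself was not rerun, and without read counts or an untagged line used here, weak regions cannot be set against a background.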

Other observations

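Some genes of the wider cascade had high peaks, in the gene or within 5 kb, over 500 bp from their starts. These genes are named here after their values were seen. Whether the peaks lie in the gene or in a flank, or near a start of another gene, was not examined. Hr3, which encodes an ecdysone-induced nuclear receptor that activates ftz-f1, had 4 peaks, the highest with signal 2422 and rank 67, below the E23 promoter peak and above the highest peak of the other 8 genes. Hr4, another ecdysone-induced nuclear receptor, had 13 peaks in 76.0 kb, the highest with signal 1558, and chinmo had 4 with a highest signal of 991. None of these 3 had a promoter peak. Among the cofactor genes, Smr, which encodes a corepressor of the receptor, had 8 peaks in 68.4 kb, the highest with signal 923, and tai had 7 in 93.4 kb.

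Of the genes whose products act in ecdysone synthesis, nvd, spo, spok, phtm and dib had 0 peaks each, while shd had 4 with a highest signal of 412, sad 1 of signal 623 and sro 1 of signal 332. Many coding genes lack a peak, since 52.5% have one. Cyp18a1, which inactivates the hormone, had 0. The locus of Ptth, the neuropeptide that triggers synthesis, had 1 peak of signal 762 and no promoter peak. For sad, sro and Ptth, whether the peak lies in the gene or in a flank was not examined.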
